A study of Homo sapiens with 3 samples.

Results

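In HEK293T cells, a human embryonic kidney cell line, 160 genes carried at least 5 clusters of C-to-U editing in each of 3 biological replicates that expressed the RNA-binding protein RBFOX2 fused to the deaminase APOBEC1. A cluster is a stretch of a transcript in which edited C bases were enriched over the background rate of its exon or intron. The genes were chosen by their number of clusters, with the gene taken from the first gene name of each cluster, and RBFOX2 itself, the fused protein's own gene, was left out. They make up 1.76% of the 9109 genes with a cluster in any replicate and 4.59% of the 3487 genes with a cluster in each. Their 1131, 1184 and 1097 clusters were taken from 14295, 15181 and 11367 clusters in replicates 1, 2 and 3.

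All 3 replicates belong to 1 group, of wild-type genotype, in which doxycycline induced the RBFOX2-APOBEC1 fusion for 72 h. The labels give the treatment as a transient transfection and describe stable lines as well, so they leave unclear how the fusion entered the cells. The fusion was expressed from a construct on top of the cells' own RBFOX2, and no sample without it was analysed here, so each comparison below sets these genes beside the other genes of the same replicate. Nothing gives the cultures the replicates came from beyond their description as biological replicates, and an exact sign-flip test over 3 replicates cannot give a p under 0.25.

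RBFOX2 binds GCAUG elements in pre-mRNA and in 3′ untranslated regions and is best known as a regulator of alternative splicing. In STAMP, the method used here, APOBEC1 fused to such a protein deaminates C bases to U near the sites the protein visits, so that edits in ordinary RNA sequencing mark bound transcripts. APOBEC1 also edits some C bases on its own, and a transcript with many reads offers more bases in which edits can be seen.

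The number of genes fell steeply as more clusters were asked for. In each replicate, 3486 genes other than RBFOX2 had at least 1 cluster, 1534 had at least 2, 723 at least 3, 359 at least 4 and 160 at least 5. A minimum of 6 left 78 genes, 7 left 39, 8 left 19 and 10 left none. Among the 160 genes, 82 had exactly 5 clusters in their lowest replicate, and ATP6V1E1, C6orf48, CDC25A, FBXO5, TRIP12 and UBE2D2 had 5 in every replicate. Another 199 genes had 4 in their lowest replicate. Among these, LUZP6 had 6, 14 and 4 clusters in replicates 1, 2 and 3, OGT had 4, 8 and 11, and DDX21 had 9, 9 and 4, so genes just outside could exceed most members in single replicates.

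Genes chosen on a pair of replicates give a view of the replicate that the choice did not use. Of 217 genes with at least 5 clusters in replicates 2 and 3, 160 (73.7%, Wilson 95% interval 67.5 to 79.1%) had at least 5 in replicate 1. It was 160 of 217 for replicate 2, and 160 of 319 (50.2%, 44.7 to 55.6%) for replicate 3, which had the fewest clusters. These are the same 160 genes each time, being those with at least 5 clusters in all 3 replicates. Of the other genes with a cluster in both choosing replicates, 10.1% had at least 5 clusters in replicate 1, 13.2% in replicate 2 and 4.51% in replicate 3. The mean share was 65.9% ± 13.6 (SD, n = 3 replicates), against 9.28% ± 4.42 of the other genes. The 3 shares have the 160 genes in common, so they are not independent. The other genes had fewer than 5 clusters in a choosing replicate, so the choice favoured the direction of the difference. The chosen genes also had more reads, as given below, and the part of depth in this difference was not tested.

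A gene's mean number of clusters ranged from 5 to 13.3, with a median of 6.67 and a median SD over replicates of 1.15. MDM2, which encodes the ubiquitin ligase that restrains p53, had the most, with 7, 16 and 17 clusters in replicates 1, 2 and 3. WDR26, a subunit of a ubiquitin ligase complex, followed with 9, 13 and 12. CANX, which encodes the endoplasmic reticulum chaperone calnexin, had 13, 9 and 10. The order of the genes turned on the replicate, since 39 genes had their highest count in replicate 1 alone, 45 in replicate 2 alone and 30 in replicate 3 alone. Spearman's rho of the number of clusters between pairs of replicates was 0.360, 0.273 and 0.353 over the 160 genes, given as a description of genes chosen by that number.

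**Figure D1:**
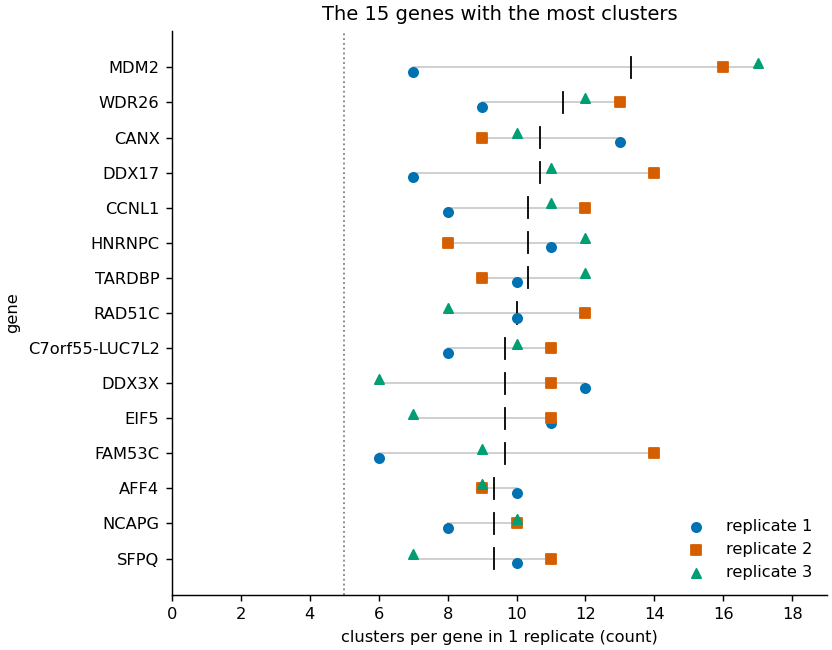
Number of clusters (x axis, count) in each replicate for 15 genes with the highest means (y axis), with the mean as a black bar and the minimum of 5 as a dotted line. MDM2 spans 7 to 17 clusters over the replicates, and AFF4 spans 9 to 10.

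Of the 15 genes named for their number of clusters, several encode proteins that bind RNA, a grouping made after the values were seen. DDX17, an RNA helicase that takes part in splicing, had 7, 14 and 11 clusters, and HNRNPC, which coats nascent transcripts, had 11, 8 and 12. TARDBP, which encodes the RNA-binding protein TDP-43, had 10, 9 and 12, and SFPQ, a splicing factor of paraspeckles, had 10, 11 and 7. CCNL1, a cyclin that acts in splicing, had 8, 12 and 11. C7orf55-LUC7L2, a readthrough name for FMC1 and the spliceosomal gene LUC7L2, had 8, 11 and 10. DDX3X, a helicase of translation initiation, had 12, 11 and 6.

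RAD51C, which acts in homologous recombination, had 10, 12 and 8 clusters, and NCAPG, a condensin subunit, had 8, 10 and 10. EIF5, a translation initiation factor, had 11, 11 and 7. AFF4, a scaffold of the super elongation complex, had 10, 9 and 9, the narrowest range of the 15. FAM53C had 6, 14 and 9. TMEM194A, with 10, 10 and 8 clusters, and YWHAZ, with 8, 10 and 10, had the same mean as AFF4, NCAPG and SFPQ, and were left out of the 15 by the alphabet.

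The lists of gene roles held 12 of the 160 genes. Of 157 listed genes, 143 had a cluster in any replicate and 76 had one in each, so the members were 8.39% and 15.8% of these, where all genes gave 1.76% and 4.59%. The counts by list that follow are over all listed genes, with a cluster or not. Splicing and RNA-binding genes gave 5 of 22, namely SON, HNRNPH1, HNRNPK, DDX17 and CNOT1. Chaperones gave 2 of 7 (HSPA9 and HSPA4), and chromatin and transcription genes 2 of 30 (CHD2 and POLR2A). The giant cytoskeletal and motor genes gave 1 of 22 (CLTC), ubiquitin ligases 1 of 14 (TRIP12), and long noncoding RNAs 1 of 6 (XIST). PI3K-like kinases (6 genes), translation (8), lipid synthesis (10), tubulin and actin (7), centrosome and mitosis (11) and membrane genes (14) gave none. These lists were chosen with earlier results of these data known, so their shares are a description only and were not tested.

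Gene families, which were picked after the values were seen, are set out next, each over its genes with a cluster in any replicate, of which 1.76% were members over all genes. Of 6 YWHA genes with a cluster, which encode 14-3-3 adaptor proteins, YWHAB, YWHAG, YWHAQ and YWHAZ were members. SRSF genes, which encode serine- and arginine-rich splicing factors, gave 4 of 10, and HNRNP genes 4 of 27. Ubiquitin-conjugating enzymes of the UBE2 group gave 5 of 29. Genes whose symbols start with EIF gave 5 of 51, and those starting with RPL or RPS, among them RPL7L1, gave 4 of 54. DDX and DHX helicases gave 2 of 38. ARF1 and ARF4, which encode small GTPases of vesicle traffic, were 2 of 4 ARF genes.

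Reads lay deeper over the clusters of the 160 genes than over the others. Their median read depth, the mean number of reads over a cluster, was 66.8, 61.6 and 45.9 in replicates 1, 2 and 3, against 23.6, 23.0 and 19.7 for all other clusters. The ratio was 2.61 ± 0.258 (n = 3), and the groups of replicates did not overlap. A depth of at least 50 was reached by 55.1% ± 7.21 of the clusters in these genes and by 24.7% ± 2.23 of the others. The genes therefore held 8.45% ± 1.04 of the clusters but 12.7% ± 0.890 of the reads counted in clusters. Read depth enters the calling of clusters, and its part in the choice of the genes was not tested.

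The mean over replicates of a gene's median depth spanned from 12.0 to 2923. RPL30, a ribosomal protein gene, was the deepest with 3704, 2772 and 2292. MDM2, with the most clusters, had a depth of 32.0, 17.1 and 12.8, and AFF4 had 18.7, 13.3 and 11.9. HNRNPC lay at 360, 705 and 515. Between pairs of replicates, Spearman's rho of the genes' depths lay from 0.861 to 0.897.

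**Figure D2:**
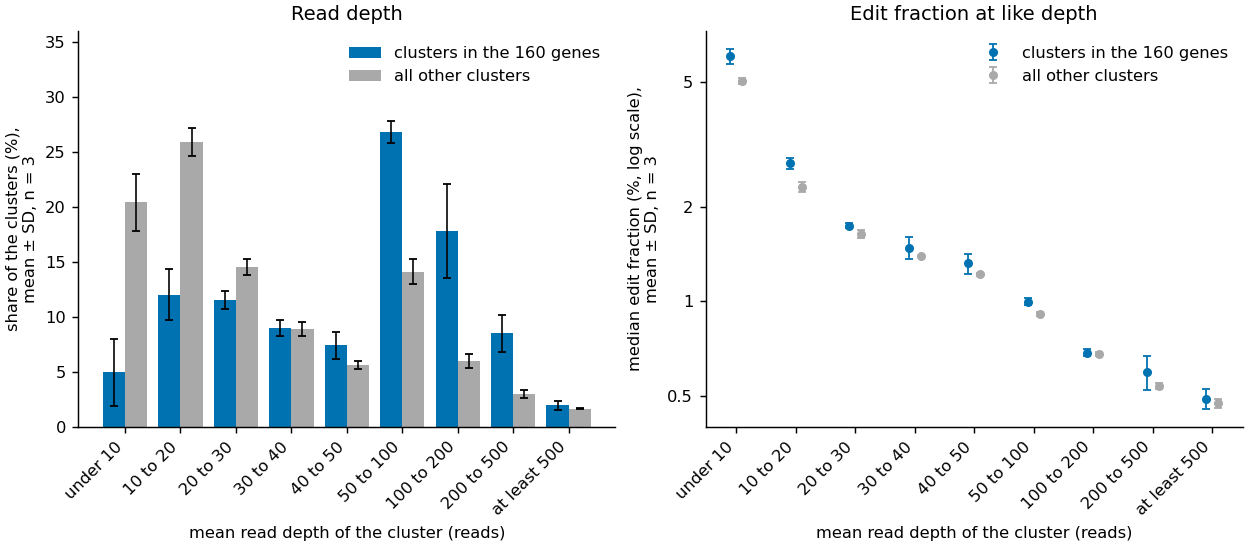
Left, the share of clusters (y axis, %) in each class of mean read depth (x axis, reads, with classes of unequal width) for the 160 genes and for all other clusters. Right, the median edit fraction (y axis, %, log scale) in the same classes; bars or points are means and error bars SDs over 3 replicates. The genes' clusters are most frequent at a depth of 50 to 100, the others' at 10 to 20, and within classes the genes' median edit fraction is the higher one in each of the 9 means.

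The edit fraction, edited C bases over all C bases covered by reads, was lower in these genes over all clusters and higher at like depth. The median was 1.11%, 1.18% and 1.35% in replicates 1, 2 and 3, against 1.69%, 1.70% and 1.86% in the other clusters, a difference of -0.54 ± 0.0400 percentage points. Comparing clusters within 9 classes of read depth turned the sign to +0.150 ± 0.0131 points. At a depth of at least 50 the difference was +0.0269 ± 0.0280 points, which is within the spread between replicates. The median of the 160 genes was the higher one in 23 of the 27 combinations of class and replicate and, in 5 of the 9 classes, in every replicate. Below a depth of 10 it was 6.02% ± 0.317 against 5.02% ± 0.127, at 10 to 20 it was 2.75% ± 0.109 against 2.31% ± 0.0885, and at 50 to 100 it was 0.998% ± 0.0255 against 0.911% ± 0.0121. At 100 to 200 the medians of 0.686% ± 0.0184 and 0.678% ± 0.00947 did not differ beyond their spread. The steps between depth classes were larger than those between the gene groups.

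Clusters of the genes rested on more edited reads. A single edited read supported 19.6% ± 3.10 of them, against 31.7% ± 2.60 of the others, and at least 11 edited reads supported 8.97% against 3.68%. Their median length was 45 bases, as in the other clusters, whereas the mean was 61.6 ± 2.16 against 52.3 ± 0.400 bases. C bases were somewhat sparser in them, at 18.5 ± 0.307 per 100 bases against 19.8 ± 0.403. A score of at least 0.99 was held by 65.4% against 60.2%. The score is the cumulative probability that the authors assigned to each cluster.

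Single genes spread widely in edit fraction, from 0.452% to 3.13% with a median of 1.06%. The SD between genes was 0.600 percentage points, and the median SD of a gene over its replicates was 0.203. In the order of the 160 means, all 159 neighbouring pairs lay closer than the larger of their SDs, and ranking so many genes makes such gaps small. Neighbours could therefore not be told apart, and genes further apart in the order were not compared in this way. The order followed depth, with Spearman's rho of -0.87 over the genes, which share libraries and the same filter. Between replicates the edit fractions of the genes had rho from 0.767 to 0.796.

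PRKAB2, a regulatory subunit of the energy sensor AMPK, had the highest mean, with 3.43%, 1.64% and 4.30% in replicates 1, 2 and 3. FAM199X had 2.34%, 3.74% and 3.06%. NKRF, which encodes a repressor of NF-kB target genes, had 2.02%, 3.06% and 3.83%. Of its 90, 69 and 65 edited bases, 62, 48 and 52 lay in 1 locus, described below. That locus held 883, 705 and 718 of the 4460, 2252 and 1695 covered C bases of NKRF, so it set much of the gene's value. TLK2, a kinase of chromatin assembly, had 3.26%, 2.03% and 3.61%. CHD2, a chromatin remodeller, had 2.56%, 2.59% and 3.44%. These 5 genes were shallow, with median depths between 7.12 in replicate 3 of CHD2 and 54.5 in replicate 1 of NKRF, and their values overlapped one another.

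At the low end, C17orf76-AS1, an older name of the noncoding host gene SNHG29, had 0.60%, 0.38% and 0.38%, with depths of 9.54, 620 and 15.8 whose highest and lowest replicate lay further apart, as a ratio, than in any other of the 160 genes. RPL30 had 0.44%, 0.46% and 0.56%, and ARF1 had 0.47%, 0.45% and 0.57%. YWHAZ, a 14-3-3 gene, had 0.52%, 0.55% and 0.51%, and HNRNPK, which encodes a poly(C)-binding protein, had 0.42%, 0.57% and 0.63%. No value of these 5 genes reached the lowest value of the 5 highest genes, but both sets were chosen by their edit fraction, which favours this. BTG2, an antiproliferative gene described because its replicates lay close together, had 2.45%, 2.32% and 2.39% at depths of 18.4, 27.0 and 15.9, about as shallow as TLK2.

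Most genes carried over 50% of their clusters in a single dominant exon or intron, as numbered in the deposited data. Over the 3 replicates together, a gene had clusters in 1 to 15 exons, with a median of 3, and 72.3% of its clusters, in the median gene, lay in the leading exon or intron. In 120 genes over 50% of the clusters lay there, in 47 at least 90% did, and in 27 genes 1 exon held all of them. Per replicate, a gene had clusters in 2.64 ± 0.143 exons. The exons are named by their deposited number, which rises along the chromosome in every gene with clusters in more than 1 exon. Exon 0 is thus the 5′ end of a gene on the plus strand and the 3′ end of a gene on the minus strand. Whether a numbered exon is a single exon of 1 transcript was not checked. In EIF4A2, exon 2 held all 25 clusters, over 5445 bases.

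Clusters gathered at the 3′ end, as they also did in other genes. Of the 88 genes on the minus strand, 69 were led by exon 0. Of the 72 on the plus strand, 3 were led by exon 0 and 60 by the highest-numbered exon with a cluster. On the minus strand, exon 0 held 62.0% ± 3.45 of the clusters of the genes and 59.2% ± 2.36 of those of other genes, and on the plus strand 3.90% ± 0.445 and 3.98% ± 0.305. Within replicates, the share on the minus strand was higher in the genes each time, by 4.27, 2.80 and 1.18 percentage points (2.75 ± 1.55), and the difference on the plus strand was -0.084 ± 0.680 points, within its spread.

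**Figure D3:**
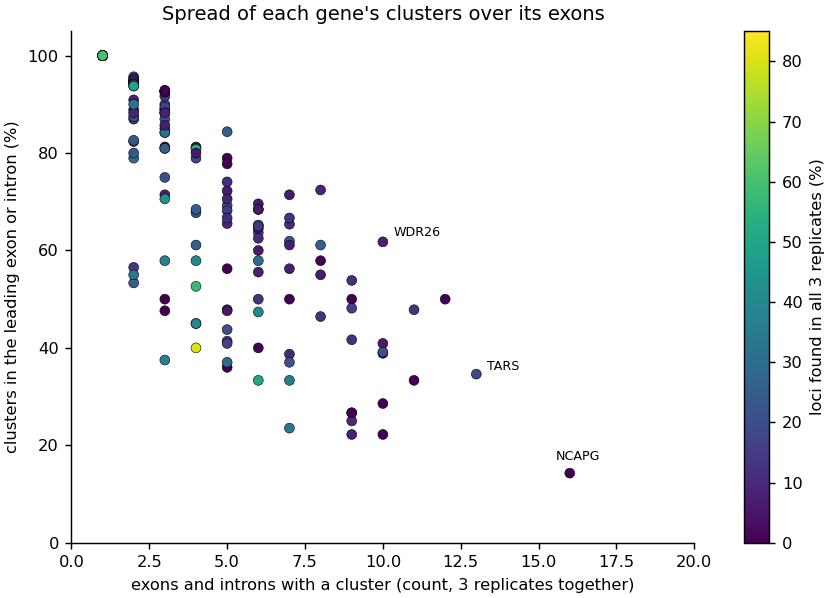
Share of a gene's clusters in its leading exon or intron (y axis, %) against the number of exons and introns with a cluster (x axis, count over 3 replicates) for the 160 genes, with colour for the share of its loci found in all 3 replicates (%). The 27 genes with all clusters in 1 exon coincide at the upper left, and NCAPG, with 16 exons and introns and 14.3% of its clusters in the leading one, lies at the lower right.

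NCAPG was the most dispersed gene. Its 28 clusters lay in 15 exons and 1 intron, and the leading exon held 4 of them, or 14.3%. TARS, which encodes the threonyl-tRNA synthetase TARS1, had clusters in 13 exons, and NUP155, a nuclear pore scaffold, in 12. HSPA4, a chaperone of the HSP110 group, and KDM5B, a histone demethylase, each had clusters in 11, and CNOT1, IVNS1ABP, KIAA1429, SF3B1 and WDR26 in 10. KIAA1429 encodes VIRMA, a subunit of the m6A methyltransferase, and SF3B1 a core splicing factor. RAD51C had 9 exons with clusters and was among the few plus-strand genes led by exon 0, its 5′ end, with 8 of 30 clusters. MDM2 stood at the other end, with 37 of 40 clusters in exon 28, and CANX had 27 of 32 in exon 44. All 29 clusters of FAM53C lay in exon 26, all 26 of BTG2 in exon 2 and all 28 of YWHAZ in exon 0.

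Introns held 26, 31 and 20 of the clusters in replicates 1, 2 and 3, or 2.25% ± 0.400, against 2.07% of the other clusters. They came from 26 genes, of which 4 were led by an intron. C7orf55-LUC7L2 had 12 of 29 clusters in intron 29, AKIRIN2 8 of 20 in intron 7, HSPA14 9 of 18 in intron 11, and C17orf76-AS1 9 of 20 in intron 18. In these intronic clusters the mean read depth and the reads over the C bases came apart. Their median depth was 72.9, 66.0 and 34.1, whereas the covered C bases per C base of the cluster had medians of 8, 9.54 and 10.9. Coverage per C base was under 50% of the depth in 73.1%, 80.6% and 75% of the intronic clusters of the genes, but in 4.43%, 6.59% and 5.48% of the exonic ones. Among the other clusters, this was so in 44.8%, 54.9% and 38.6% of the intronic ones and 3.21%, 3.58% and 2.98% of the exonic ones. A depth of 50 in an intron, in these genes or others, therefore often did not stand for 50 reads over each C base.

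Positions recurred between replicates more often in the 160 genes. A cluster counts here as found in all 3 replicates if both other replicates had a cluster on its strand that shared 1 base or more with it. The share was 27.6% (Wilson 95% interval 25.1 to 30.3%), 25.9% (23.5 to 28.5%) and 27.3% (24.7 to 29.97%) of the genes' clusters in replicates 1, 2 and 3, where all clusters together gave 10.6%, 9.86% and 13.1%. The intervals cover counting error only. The other clusters gave 9.74% ± 1.64, against 26.9% ± 0.877 in the genes. Found in 1 replicate only were 42.6% of the genes' clusters and 69.9% of the others. The rule asked for several clusters of a gene in every replicate, so more overlaps had to follow in part.

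At like depth the shares came closer together in percentage points, though not as a ratio at the lowest depths. In clusters under a depth of 10, 12.4% ± 2.33 of those in the genes and 1.25% ± 0.585 of the others were found in all 3 replicates. At 50 to 100 the shares were 29.3% ± 4.07 and 16.7% ± 3.90, and at 200 to 500 they were 48.4% ± 2.23 and 40.6% ± 5.84. At 500 or more, 54.0% ± 3.85 and 54.4% ± 3.81 did not differ beyond their spread. The genes had the higher share in 26 of 27 combinations of depth class and replicate, which are not independent of one another. The rule favours this direction within each class too, since the other clusters include those of genes without a cluster in every replicate.

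**Figure D4:**
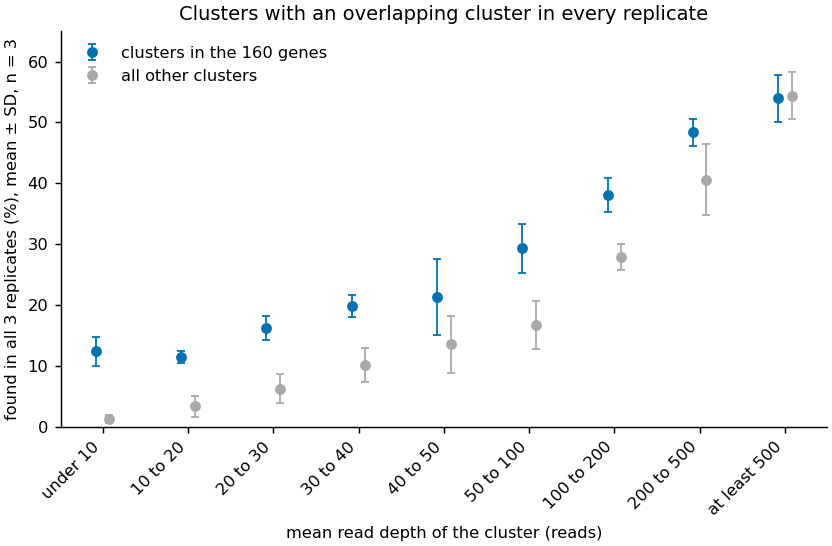
Share of clusters found in all 3 replicates (y axis, %) by class of mean read depth (x axis, reads) in the 160 genes and in all other clusters, as mean ± SD over 3 replicates. Both shares rise with depth, and the genes' share is above the others' in each class mean except at a depth of at least 500, where both are near 54%.

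Overlapping clusters of the 3 replicates were joined into loci, of which the genes had 2205. A locus can chain clusters that do not all touch each other. All 3 replicates contributed to 312 of them (14.1%, where all loci of the data gave 4.77%), a pair of replicates to 439 (19.9%) and a single replicate to 1454 (65.9%). In the other genes, 1274 of 31039 loci (4.10%) came from all 3. Neighbouring loci of a gene lay 150 bases apart in the median, and 75 bases apart within 1 exon or intron, with an interquartile range of 30 to 210. Clusters found in all 3 replicates had a median depth of 104, 91.5 and 71.0 and a median of 6, 6 and 5 edited reads. Those found in 1 replicate only had depths of 43.1, 44.3 and 33.0 and 2 edited reads in each replicate. The recurring clusters were also longer, at 75, 75 and 60 bases against 45.

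Recurrence was higher in the dominant exons than elsewhere in the same genes. In the leading exon or intron, 31.1% ± 0.645 of clusters were found in all 3 replicates, and in the other exons and introns 17.0% ± 1.48. The difference within replicates was 14.1 ± 1.46 percentage points. The median depth was 66.9, 55.4 and 43.0 in the leading exon or intron and 66.5, 69.1 and 52.0 elsewhere. The median edit fraction was 1.22% in both. The leading exon was chosen by its clusters, and a split by position does not use them. However, exon 0 led 69 of the 88 minus-strand genes, so the splits largely coincide there. Exon 0 of the minus-strand genes, their 3′ end, had 28.2% ± 0.637 of clusters found in all 3 replicates, and the other exons and introns of those genes 18.0% ± 2.17. In the other minus-strand genes, the shares were 11.5% ± 1.89 and 7.17% ± 1.26. In the genes with many clusters the median depth of exon 0 was lower than elsewhere in every replicate, with a difference of -12.9 ± 5.33 reads. The coverage per C base had medians of 47.0 ± 11.5 in exon 0 and 42.1 ± 6.48 elsewhere and was higher in exon 0 in 2 of 3 replicates. The part of coverage and of the packing of clusters in these differences was not tested.

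The genes with 1 exon and those with many differed in the same direction. In the 27 genes with all clusters in 1 exon, 67 of 314 loci (21.3%) came from all 3 replicates. In the 10 genes with clusters in at least 10 exons, 11 of 185 (5.95%) did. The first group had a median depth of 89.2 over the genes and spanned a median of 2100 bases from first to last cluster, and the second 38.7 and 39942 bases. The part of depth and of the packing of clusters in this difference was not tested.

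At the level of genes, 136 had at least 1 locus in all 3 replicates and 24 had none. ARF1 had the largest share, with 5 of 6 loci in all 3. C6orf48, an older name of the small nucleolar RNA host gene SNHG32, had 4 of 5. FHL1, a LIM-domain protein of muscle, and H1F0, which encodes a linker histone, each had 4 of 6, and PSAP, the precursor of the lysosomal saposins, had 5 of 8. Apart from C6orf48, with 4 exons, each of these genes had its clusters in 1 exon, within 1080 to 1215 bases. YWHAZ and POLR2A, which encodes the largest subunit of RNA polymerase II, had the largest numbers, with 6 of 10 and 6 of 11.

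Genes without any recurring locus could have as many clusters. C6orf62 had 9, 7 and 9 clusters in 23 loci, and ARPP19, a phosphatase regulator, had 5, 12 and 6 in 19 loci of a single exon. AKIRIN2 had 17 loci, CAPZA1, an actin-capping subunit, had 16, and AZIN1, an antizyme inhibitor, had 13, none of them found in all 3 replicates. These 5 are the first by the alphabet of the 24 genes. NCAPG had 7 loci in a pair of replicates and 14 in a single one, and SMC4, another condensin subunit, had none of 17 in all 3. MDM2 had 2 of 30 loci in all 3 replicates, 6 in a pair and 22 in a single one. Having many clusters in every replicate thus did not mean having them at the same places.

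**Figure D5:**
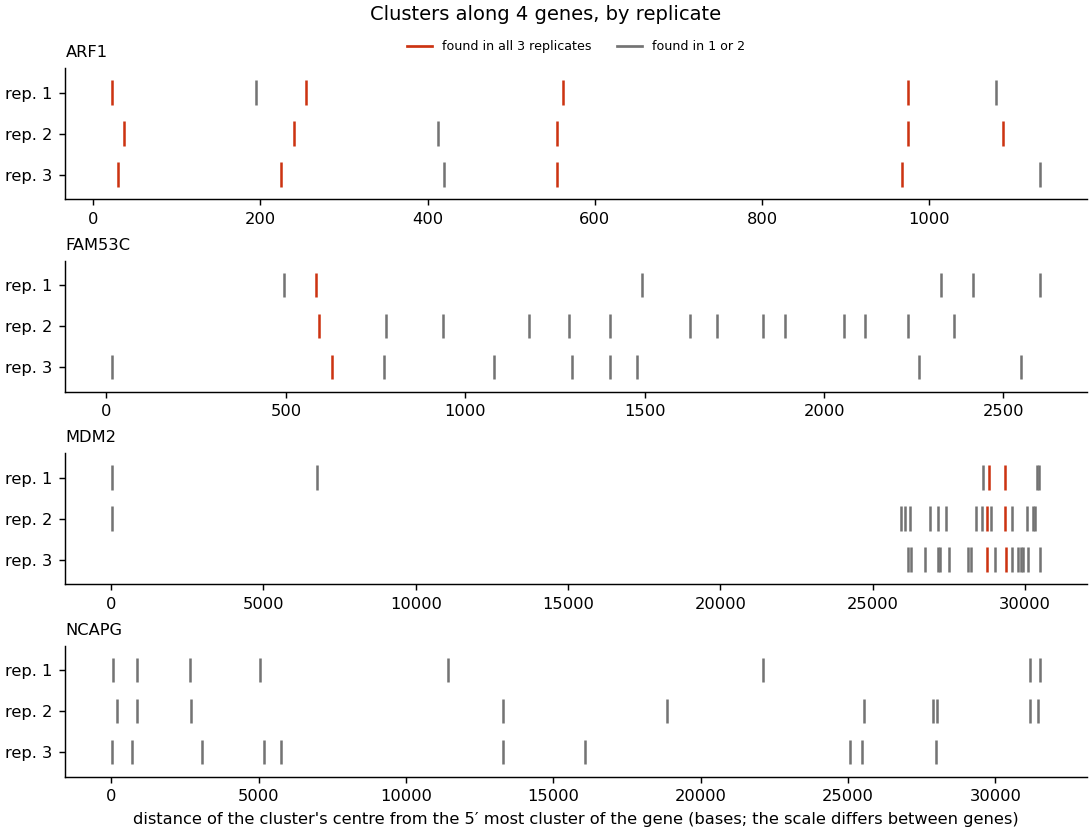
Clusters of ARF1, FAM53C, MDM2 and NCAPG (ticks, in rows by replicate) by the distance of their centre from the 5′ most cluster of the gene (x axis, bases, with a scale for each gene), in red where found in all 3 replicates. In ARF1 the clusters align between rows, in MDM2 they crowd into the last few kilobases with few aligned, and in NCAPG none is red.

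ARF1 shows how closely positions could recur. Each replicate had 6 clusters in exon 14 of ARF1, and the cluster that starts 930 bases after the first one was 90, 90 and 75 bases long, with 57, 51 and 32 edited bases and an edit fraction of 0.667%, 0.600% and 0.429%. The depth there was 567, 561 and 518. In FAM53C, which has its 29 clusters in 1 exon too, 1 of 19 loci was found in all 3 replicates.

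Of the recurring loci, 187 in 92 genes had a depth of at least 50 in each replicate. Their median edit fraction was 0.804%, and the median SD over replicates was 0.184 percentage points. Positions below are those of the files, on the hg19 build. The highest value belonged to a locus in exon 0 of NKRF on the minus strand at chrX:118723531-118723575, with 7.02%, 6.81% and 7.24%. It held 62, 48 and 52 edited bases on 61, 47 and 51 edited reads, so that nearly each edited read had 1 edited base. Coverage per C base was 63.1, 50.4 and 51.3. The edit fraction times the 14 C bases of the locus was 0.983, 0.953 and 1.01. That is about what 1 C base converted in nearly every read would give. Single positions were not analysed, so whether the edits lay at 1 C base was not tested. Whether a genetic variant of the cells gave these base changes was not tested either. The paper describes a removal of common SNPs before clusters are called, and no sample without the fusion was analysed here. The other clusters of NKRF in exon 0 had edit fractions of at most 2.44%.

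EIF4A2, which encodes an RNA helicase of translation initiation, came next among loci with many edited reads. Its locus in exon 2 on the plus strand at chr3:186507258-186507407 had 3.00%, 1.94% and 3.30% on 24, 16 and 13 edited reads. A locus in exon 0 of ARF4 at chr3:57557166-57557330, on the minus strand, had 2.69%, 2.12% and 2.71% on 28, 15 and 16 edited reads. RPS23, a ribosomal protein gene, had a locus in exon 2 at chr5:81573644-81573688 on the minus strand. It had 2.24%, 2.24% and 2.67% on 90, 91 and 101 edited reads, the most of the 10 loci with the highest values. Its edited bases, 83, 88 and 101, were fewer than these reads in replicates 1 and 2, and the reason was not tested. The calmodulin gene CALM3 had a plus-strand locus in exon 16 at chr19:47113898-47114002 with 1.84%, 1.92% and 2.42% on 15, 16 and 10 edited reads. The ranges of these 4 loci overlapped one another, and each lay below NKRF in every replicate.

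Loci in HNRNPH3 at chr10:70101856-70101945 (plus strand, exon 11) and TTL at chr2:113289829-113289933 (plus strand, exon 16) had 2.46% ± 0.773 and 2.15% ± 0.960, on 3 to 7 edited reads. The last 3 rested on 1 or 2 edited reads per replicate. HNRNPC at chr14:21731826-21731870 (minus strand, exon 20) had 2.80% ± 1.13, SFPQ at chr1:35646352-35646471 (minus strand, intron 5) had 2.07% ± 0.697 and SNX5 at chr20:17948437-17948601 (minus strand, exon 29) had 1.97% ± 0.630. In HNRNPC the mean depth was 553, 766 and 557, but the coverage per C base was 16.1, 20.2 and 9.80. In SFPQ it was 12.8, 19.5 and 12.2 at depths of 67.0, 73.3 and 50.4, and in SNX5 it was 28.2, 16.7 and 13.9 at depths of 52.0, 82.9 and 64.6. These 3 loci therefore passed the depth of 50 without that many reads over their C bases.

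The YWHA and SRSF genes illustrate how members of a family differed. YWHAZ had 8, 10 and 10 clusters and 6 of 10 loci in all 3 replicates, whereas YWHAG had 7, 9 and 7 clusters, also in 1 exon, and 2 of 13. YWHAB had 3 of 6 such loci and YWHAQ 3 of 9. Edit fractions were 0.529% ± 0.020 in YWHAZ, 0.799% ± 0.084 in YWHAQ, 0.919% ± 0.122 in YWHAB and 1.20% ± 0.625 in YWHAG. YWHAG had 0.875%, 0.799% and 1.92%, so replicate 3 set its mean apart. Depths were 196, 155 and 125 in YWHAZ, 142, 112 and 99.4 in YWHAQ, 93.6, 52.8 and 50.3 in YWHAB and 71.8, 57.7 and 36.3 in YWHAG.

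Among the SRSF genes, SRSF7 had 4 of 10 loci in all 3 replicates, SRSF3 2 of 15, SRSF10 1 of 18 and SRSF6 none of 17. SRSF3 and SRSF7 were deep, with 428, 351 and 356 reads and 217, 262 and 226 reads, and SRSF6 was shallow, with 57.6, 49.9 and 29.3. Edit fractions were 0.742% ± 0.107 in SRSF7, 0.869% ± 0.334 in SRSF3 and 0.984% ± 0.157 in SRSF6. SRSF10 had 0.995%, 1.33% and 4.71%, a mean of 2.34% that fell to 1.16% without replicate 3.

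Some gene names stand for reads that several annotated genes share. In 17 genes at least 1 cluster carried another gene name as well, and in 9 of them over 50% did, namely AC073610.5, C6orf48, C7orf55-LUC7L2, CSNK1A1, DCAF8, DNAJC25-GNG10, EIF4A2, MDM2 and RP11-159D12.5. For MDM2 this was true of 37 of 40 clusters and for C7orf55-LUC7L2 of all 29, so their counts cannot be assigned to 1 gene. Counting every name of a cluster gave 177 genes in place of 160. RPL30, RPL15 and RPS23 and the YWHA and HNRNP genes have close relatives or processed copies elsewhere in the genome, and how the authors placed reads that match several places is not given in the sources used here.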

How the data were processed

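Clusters of C-to-U editing were analysed in 3 biological replicates of HEK293T cells with the RBFOX2-APOBEC1 fusion. The submitters' processing notes name STAR and hg19, without a version in the sources used here. Per the methods, the authors called edits with SAILOR and ran FLARE on each replicate, with 30-base windows, background rates set apart for exons, introns and classes of depth, an adjusted p threshold of 0.1 and merging within 15 bases. Windows that did not pass were not analysed, so library depths are not known from the files (the clusters hold 1637592, 1731304 and 1104249 reads), and a cluster missing from a replicate may have been edited below the threshold.

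The deposited counts per cluster (C bases, covered and edited bases, all reads and edited reads) are unscaled whole numbers. The authors' edit fraction, edited bases over covered C bases, was recomputed for every cluster and equalled it within 1e-09. The authors' mean read depth is coverage over the cluster with no scaling for library size. Their deposited score runs from 0 to 1.

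Genes were counted by the first gene name of a cluster. The members, gene lists and named items were chosen with earlier results of these data known. Genes were named by a rule: the 15 with the most clusters, 5 at either end of edit fraction and of the share of recurring loci, listed genes, genes around the minimum, and 10 loci, with ties broken by the alphabet. Others named (families, BTG2, SMC4, genes with 10 exons or more) were chosen after their values were seen. Gene edit fractions are edited bases over covered C bases summed over a gene's clusters. Values are means and SDs over replicates. No test was run across clusters or genes, which are not replicates. RefSeq tables of another build matched 144 of the 160 names directly and 12 as an older symbol, and were used for names only. Values were computed in Python 3.11.15 (pandas 2.3.3, NumPy 2.4.6), intervals with SciPy 1.17.1 and plots with matplotlib 3.10.9, and the code was tested on simulated data. Alternatives were other minimum numbers of clusters, scores of at least 0.99, depths of at least 50, an overlap of 50%, means or pooled values, depth classes, coverage per C base, exonic clusters only and leaving out each replicate. Counting every gene name and a minimum of 2 edited reads were chosen after seeing the data.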

Additional observations from a re-analysis of the deposited data

How the results depend on the processing

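The number of genes, 160 in the report, was 359 with a minimum of 4 clusters, 78 with 6 and 0 with 10. It was 32 among clusters scoring 0.99 or more, 47 at a depth of at least 50 and 86 with at least 2 edited reads per cluster. Leaving out 1 replicate gave 217 to 319 genes, with 319 without replicate 3. The share of all clusters was 16.1% with a minimum of 4 and 4.71% with 6. The difference in median edit fraction from the other clusters turned positive at a depth of at least 50 (0.0269 percentage points) and within depth classes (0.150). It kept its sign but moved to -1.03 at a score of at least 0.99, -0.87 as means, -0.15 pooled and -0.39 with at least 2 edited reads. The share found in all 3 replicates was 25.2% with a minimum of 4 clusters, 25.7% with 6, 23.9% at a score of at least 0.99, 32.0% at a depth of at least 50, 10.4% with an overlap of 50% and 28.7% with at least 2 edited reads. Exons per gene were 2.00 at a score of at least 0.99. The cause was not tested. Of the 45 alternatives, 15 left out a replicate, of which 1, the number of genes without replicate 3, moved by over 1.5 times or beyond the spread. Of the other 30 alternatives, 9 stayed within these limits. Differences from the other clusters were taken within each replicate.

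Depth limits what can be said of shared positions, since the clusters analysed are those that passed the authors' threshold, and clusters in 1 replicate rest on a median of 2 edited reads. With 3 replicates of 1 group and no sample without the fusion, editing by APOBEC1 alone and editing directed by RBFOX2 cannot be told apart.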
